A study of Mus musculus with 14 samples.

Results

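Mouse induced pluripotent stem cells made from fibroblasts of aged donors (A-iPSC) were compared with mouse embryonic stem cells (ESC) on 4 of the 14 Illumina bead arrays of the series. Of 25697 probes, 13668 had a detection p under 0.05 on both arrays of at least 1 of these groups, and these probes, for 9337 genes, were counted. The A-iPSC, clones 16 and 19, came from tail tip skin fibroblasts of B6CBAF1 mice aged 1.5 years that had received retroviruses carrying mouse Oct4 (pMX-mOCT4), Sox2 (pMX-mSOX2), Klf4 (pMX-mKLF4) and Myc (pEYK-mMYC). The ESC, named D and H, are labelled with no retroviruses, and the labels give no strain, sex or derivation for them. Cells of both groups grew in serum medium with leukaemia inhibitory factor (LIF), at 15% serum and 1000 units of LIF per ml. The other arrays entered the estimate of the spread. They are of young and aged fibroblasts, of iPSC from skin fibroblasts of late embryos (Y-iPSC) and of A-iPSC with inducible ZSCAN10. Both kinds of iPSC grew at 15% serum and 1000 units of LIF per ml, the ZSCAN10 cells also with 2 ug of doxycycline per ml. The fibroblasts grew at 10% serum, and their labels give no LIF. Fibroblast levels set beside those of A-iPSC or ESC therefore also differ in medium. Each array of A-iPSC or ESC has its own name, and these names are read here as clones and lines, which the sample titles do not state. The labels do not say whether the arrays of a group came from separate cultures, so the p-values cover only the spread from sample to sample, which may be technical, and 2 arrays per group limit the precision. Donor age, strain, sex, retroviral transgenes and time since derivation cannot be told apart as sources of a difference between A-iPSC and ESC.

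Pluripotency in mouse cells is held by a network of transcription factors around Oct4, Sox2 and Nanog, which bind many of the same regulatory regions and keep each other expressed. In the naive state of the early epiblast, which cultured mouse ESC resemble, LIF acts through the kinase JAK and the factor STAT3 on members such as Klf4 and Tfcp2l1, and Esrrb, Klf2, Zfp42 and the Dppa genes are active. Reprogramming with retroviral factors is taken as complete when this endogenous network is on and the retroviruses are silenced.

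Levels are given as normalized log2 intensity of a probe, and a difference is the A-iPSC mean minus the ESC mean on that scale, so 1 unit is a doubling. A probe passed at an adjusted p under 0.05 in limma, and only such genes are said to rise or fall. Where no array of a group detected a probe, the fold is given as a lower bound against the lowest signal that counted as detected. Levels of different probes are not set against each other, and in bulk RNA fewer cells of a type and less RNA per cell cannot be told apart.

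A-iPSC and ESC differed over a large share of the transcriptome. Of the 13668 counted probes, 5138 passed (37.6%), with 2530 higher in A-iPSC (18.5%) and 2608 lower (19.1%), for 3760 genes. Over all 14742 probes tested the share was 34.9%. The counts of the gene lists below are to be read beside the 18.5% higher and 19.1% lower, and no list was tested against them. More than 4-fold differences that passed numbered 859 higher and 750 lower, and more than 16-fold ones 124 and 120. Pearson's r over these probes was 0.7997 between the A-iPSC mean and the ESC mean, against 0.9767 between A-iPSC 16 and A-iPSC 19 and 0.9845 between ESC D and ESC H. These are correlations across probes, which are not independent replicates. Clones 16 and 19 differed by over 1 log2 unit at 4.63% of probes, lines D and H at 1.6%, and the group means at 37.7%. The median difference over the counted probes was -0.0375. The count of passing probes fell to 2749 without A-iPSC 19, 3195 without ESC D and 2983 without ESC H. Between A-iPSC and the iPSC of embryonic donors (Y-iPSC), 10.1% of the tested probes passed. A-iPSC and ESC did not overlap at 10737 of the counted probes, against the 5138 (37.6%) that passed the test.

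**Figure D1:**
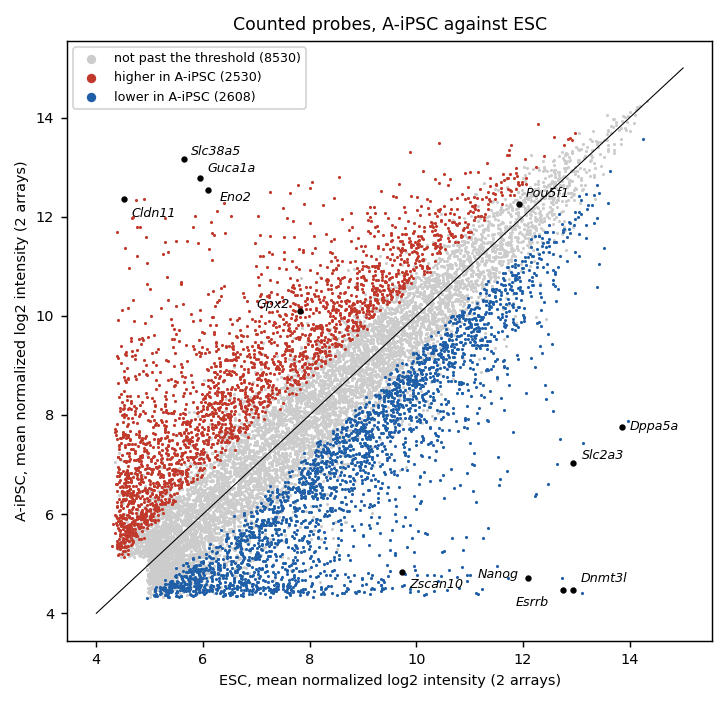
Each point is 1 of the 13668 counted probes, with its mean normalized log2 intensity in ESC (2 arrays) on the horizontal axis and in A-iPSC (2 arrays) on the vertical axis, and the line marks equal levels. Probes higher in A-iPSC that passed (2530) are red, probes lower (2608) are blue and the other 8530 are grey. Named genes are black, and Slc38a5, Guca1a, Eno2 and Cldn11 lie far above the line while Esrrb, Dnmt3l and Nanog lie near the floor of A-iPSC.

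Median probe intensity was 122.8609 and 127.3682 on the A-iPSC arrays and 129.0724 and 138.5383 on the ESC arrays, and 48.4% to 49.8% and 52% to 52.3% of probes were detected. The summed intensity of 8 measured fibroblast markers was 646.1 and 1076 in A-iPSC, 2950 and 2873 in ESC, and 21430 to 28840 in the aged fibroblasts (A-SC). All 8 were detected on both ESC arrays and 3 on both A-iPSC arrays, and Col1a2, Col3a1 and Pdgfrb were on no A-iPSC array. The part of fibroblast RNA in the differences between A-iPSC and ESC was not tested. Of 8 tested macrophage markers, 3 were detected on both A-iPSC arrays and 2 on both ESC arrays, with sums of 739.9 and 775.4 in A-iPSC and 684 and 635.8 in ESC. The ESC markers divided. At their brightest probes Pou5f1 and Sox2 were high on all 4 arrays, though another Sox2 probe was undetected in A-iPSC. Nanog, Esrrb, Dppa3, Utf1 and Tdgf1 were detected in ESC and on no A-iPSC array. The 10 markers summed to 7333 and 7343 in A-iPSC and to 38230 and 36490 in ESC. The A-iPSC sum, of unlogged intensities, came mostly from Pou5f1 (log2 12.33 and 12.18) and Sox2 (10.75 and 11.18), both among the introduced genes. The name iPSC is the label's, and 8 of the 10 ESC markers were lower in these clones than in ESC. Y-iPSC shared part of this: Esrrb read 5.03 and 4.75 there and Zfp42 5.24 and 4.91. Nanog, at 6.34 and 6.60, was detected on both Y-iPSC arrays, still below ESC.

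The naive pluripotency network was far below its level in ESC. In A-iPSC 24 of its 27 counted members fell, 1 was higher and 2 stayed within the threshold, with a median difference of -3.46, or -3.24 with undetected genes at their bound. Of these 27, 12 were detected in ESC and on no A-iPSC array. In fits that each left out 1 of the 4 arrays, 21 to 23 fell. Because undetected genes enter only through ESC, the 13 members detected on all 4 arrays are given apart: 10 fell and 1 rose.

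Nanog, the homeodomain factor that stabilises the naive state, read 4.99 and 4.45 in A-iPSC 16 and 19, against 12.12 and 12.07 in ESC D and H. The clones' signal was at least 127-fold lower (adjusted p = 1.12e-06). Esrrb, an orphan nuclear receptor that can stand in for Nanog in mouse cells, had 4.44 and 4.49 in A-iPSC and 12.85 and 12.64 in ESC, at least 200-fold lower (adjusted p = 5.97e-09). Both factors were undetected in the clones and detected on both ESC arrays. Dppa4, a chromatin-associated developmental pluripotency gene, stood at 4.52 and 4.89 in A-iPSC and 12.59 and 12.88 in ESC, at least 199-fold lower. Its dimmer probes were at least 16.6-fold and 1.19-fold lower. Dppa3, also called Stella, which protects methylation in the early embryo, had 4.37 and 4.42 in A-iPSC against 11.21 and 11.11 in ESC, at least 66.8-fold lower.

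Zfp42, known as Rex1 and a standard reporter of naive ESC, was detected on all 4 arrays, at 5.29 and 5.76 in A-iPSC and 11.37 and 11.13 in ESC. It fell by 5.72 ± 0.41 (SE, adjusted p = 2.97e-06, n = 2 arrays per group). Dppa5a, an RNA-binding protein gene of ESC, fell by 6.10 ± 0.86, with 8.10 and 7.43 in A-iPSC and 13.79 and 13.94 in ESC. Zscan10, the zinc finger factor that other cells of the series received, had 5.17 and 4.48 in A-iPSC, where clone 19 did not detect it, and 9.53 and 9.92 in ESC. The difference was -4.90 ± 0.38 (adjusted p = 5.44e-06). For Lin28a, whose product blocks let-7 maturation, the clones were at least 15.5-fold lower.

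A smaller group of naive genes kept a clear signal in A-iPSC at a reduced level. Sall4, a zinc finger factor of stem and germ cells, read 9.58 and 9.19 in A-iPSC and 12.26 and 12.39 in ESC, a difference of -2.94 ± 0.36. L1td1, an RNA-binding protein derived from a transposon, had 10.10 and 9.37 in A-iPSC and 11.66 and 11.91 in ESC (-2.05 ± 0.28). Fbxo15, the F-box gene used as an early reprogramming reporter, differed by -3.24 ± 0.27, Klf2 by -2.89 ± 0.44 and Trim28 by -1.83 ± 0.26. These genes were detected on both A-iPSC arrays. Klf2 also read 9.50, 9.97 and 9.71 in aged fibroblasts, above both clones, whereas Sall4 and L1td1 read under 5 there. Jam2 and Manba did not pass.

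**Figure D2:**
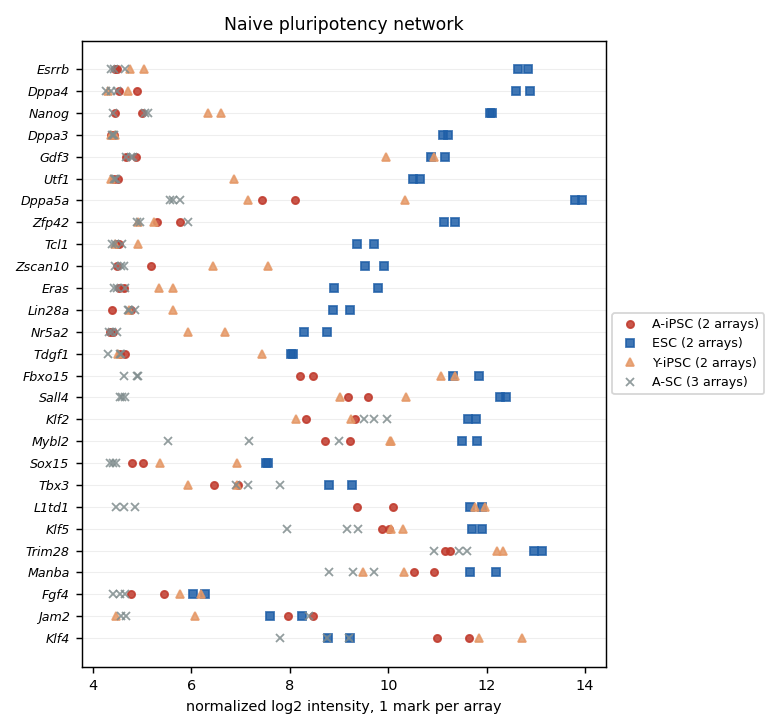
Normalized log2 intensity of the 27 counted genes of the naive network on each array, with A-iPSC as red circles, ESC as blue squares, Y-iPSC as orange triangles and aged fibroblasts (A-SC) as grey crosses. Esrrb, Dppa4, Nanog and Dppa3 sit at the same low level in A-iPSC as in the fibroblasts, Sall4 and L1td1 lie between fibroblasts and ESC, and Klf4 is the member higher in A-iPSC than in ESC.

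The promoter of Nanog is shown because the composite site read by OCT4 and SOX2 together lies in it. The OCT4-SOX2 composite element was searched on both strands, in RefSeq windows of 300 bases, 250 before the start of a transcript and 50 after (build GRCm38.p6). The site is in capitals, 75 bases before the start, and the window is chr6:122707239-122707538 on the plus strand.

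Nanog: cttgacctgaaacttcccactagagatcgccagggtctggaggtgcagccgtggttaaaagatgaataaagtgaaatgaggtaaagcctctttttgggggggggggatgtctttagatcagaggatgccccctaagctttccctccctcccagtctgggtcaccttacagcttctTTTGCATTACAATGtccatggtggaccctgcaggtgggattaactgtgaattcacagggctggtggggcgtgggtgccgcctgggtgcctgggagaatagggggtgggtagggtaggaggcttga

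These exact letters were found in 2 of all 32851 promoter windows (0.00609%), both of them windows of Nanog. Looser forms of the composite site were not searched, so the count does not say how rare such sites are. The shorter octamer ATTTGCAT was in 1.74% of all windows and in 1 of the 19 windows of the naive genes that fell (5.26%), that of Zfp42. Of the 24 naive genes that fell, 16 had a window. A match describes the letters only.

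The 4 introduced genes behaved differently from the rest of the network, and their probes did not all give the same answer. Pou5f1, which encodes OCT4, was measured by 2 probes and passed with neither: the first had 13.04 and 12.74 in A-iPSC against 12.49 and 11.74 in ESC (0.77 ± 0.29, adjusted p = 0.0606) and the other 12.33 and 12.18 against 12.26 and 11.58 (0.34 ± 0.32, adjusted p = 0.458). Myc, with 6.46 and 6.41 in A-iPSC and 5.42 and 5.55 in ESC, was within the threshold, at 0.96 ± 0.48 (adjusted p = 0.145).

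Sox2 had a probe that rose and a probe that fell. Probe ILMN_2656102 read 10.75 and 11.18 in A-iPSC and 9.11 and 9.46 in ESC, a rise of 1.68 ± 0.39 (adjusted p = 0.00629). Probe ILMN_1248711 read 4.46 and 4.43 in A-iPSC, undetected on both arrays, and 7.62 and 7.76 in ESC, at least 6.03-fold lower in the clones (adjusted p = 1.11e-06). On this second probe the clones read like the aged fibroblasts (4.39 to 4.62), and on the first they were above ESC. Klf4 repeated this with 3 probes: ILMN_1241903 rose by 2.32 ± 0.55 and ILMN_1221264 by 2.20 ± 0.56, while ILMN_2999439 fell by 2.14 ± 0.44, at 7.89 and 7.60 in A-iPSC against 10.16 and 9.60 in ESC. Of the 188 listed or named genes with several counted probes, Sox2 and Klf4 were the 2 with probes that passed in opposite directions. Y-iPSC had the same Sox2 split, at 10.75 and 11.69 on ILMN_2656102 and 4.42 and 4.49 on ILMN_1248711. No Sox2 or Klf4 probe passed between A-iPSC and Y-iPSC. Whether a probe reads the retroviral copy, the endogenous transcript or both was not tested. Without A-iPSC 19 neither the rise on ILMN_2656102 nor that on ILMN_1241903 passed, nor did that of Sox2 without ESC D or that of Klf4 without ESC H.

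**Figure D3:**
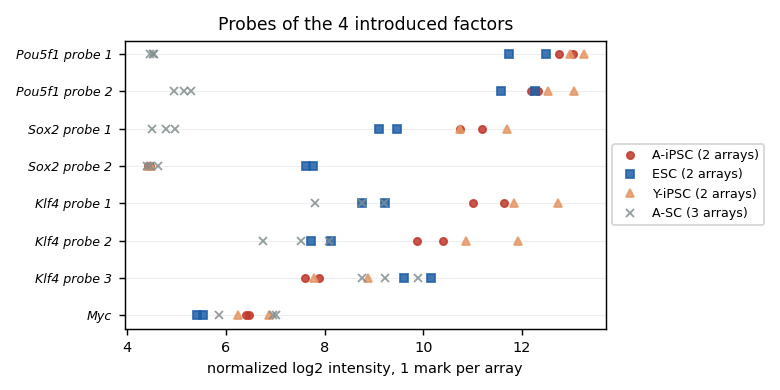
Normalized log2 intensity of each tested probe of Pou5f1, Sox2, Klf4 and Myc on each array, with probes of a gene numbered by their difference from high to low and A-iPSC as red circles, ESC as blue squares, Y-iPSC as orange triangles and A-SC as grey crosses. For Sox2 and Klf4 the last probe lies lower in A-iPSC than in ESC, and the others lie higher.

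Signals that act on the network moved in different directions. In the Nodal and Lefty list, 6 of 9 counted members fell and 1 rose, with a median of -3.46, or -2.95 with undetected genes at their bound, and 6 fell whichever of the 4 arrays was left out. Lefty2, a secreted inhibitor of Nodal, had 4.91 and 4.62 in A-iPSC and 11.43 and 10.48 in ESC, at least 57.8-fold lower. Lefty1 fell by 4.23 ± 0.59 with 6.61 and 6.58 in A-iPSC and 10.99 and 10.65 in ESC. The ligand Nodal was at least 14.7-fold lower, its coreceptor Tdgf1 at least 7.74-fold lower and the related ligand Gdf3 at least 60.1-fold lower, while the signal transducer Smad2 fell by 1.51 ± 0.30. Not every member was lower: Smad3 rose by 0.91 ± 0.30 (adjusted p = 0.033), a call lost whichever array was left out. Of the 9 counted members, 4 were detected in ESC and on no A-iPSC array and so were counted through ESC. Of the 5 detected on all 4 arrays, 2 fell and 1 rose.

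In the LIF and STAT3 list, 6 of 11 rose and 0 fell, with a median of 0.88, against 18.5% higher over all counted probes. The kinase gene Jak1 read 6.75 and 7.03 in A-iPSC and 5.24 and 5.59 in ESC, a rise of 1.48 ± 0.29 (adjusted p = 0.0028). Of the rises only that of Jak1 passed in every fit with an array left out, and 1 to 3 members rose in those fits, with 1 without A-iPSC 19. Stat3 itself differed by 0.88 ± 0.30 and Jak2 by 2.44 ± 0.54. The Klf4 value in this list is that of the brightest probe, described above.

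Genes of the post-implantation epiblast, which follow the naive state in development, were mostly undetected in A-iPSC. Of 9 counted, 8 fell and 1 did not pass, with a median of -2.88, and 5 fell whichever array was left out. Of these 9, 6 were detected in ESC and on no A-iPSC array and so were counted through ESC, and of the 2 detected on all 4 arrays 1 fell. Dnmt3b, a de novo DNA methyltransferase, had 7.53 and 7.34 in A-iPSC and 12.97 and 13.27 in ESC, a fall of 5.69 ± 0.68 (adjusted p = 0.000118). Fgf8, a growth factor of the gastrulating embryo, was, in A-iPSC, at least 20.7-fold lower, and the POU factor gene Pou3f1 at least 9.43-fold lower.

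Among enzymes of DNA methylation, 3 of 7 fell and 4 did not pass, with 2 falling without A-iPSC 19, ESC D or ESC H. Dnmt3l, the catalytically inactive partner of the de novo methyltransferases, read 4.37 and 4.59 in A-iPSC and 12.57 and 13.31 in ESC, at least 229-fold lower (adjusted p = 2.44e-08). The maintenance enzyme gene Dnmt1 had 10.10 and 9.41 in A-iPSC and 10.30 and 10.65 in ESC (-0.72 ± 0.48, adjusted p = 0.283) and did not pass. In the polycomb repressive complex 2 list, which deposits a repressive histone mark, 4 of 9 fell and 1 rose, with 2 falling without A-iPSC 19. Eed, a core subunit, fell by 1.90 ± 0.32 with 9.26 and 8.95 in A-iPSC and 11.03 and 10.98 in ESC, and the accessory subunit gene Mtf2 fell by 2.78 ± 0.35. Suz12, another core subunit gene, did not pass (-0.28 ± 0.30).

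The machinery that silences retroelements and retroviruses in embryonic cells was lower as well, with 7 of 12 counted genes falling, 0 rising and a median of -1.01. Trim28, the corepressor recruited by KRAB zinc finger proteins, read 11.25 and 11.16 in A-iPSC and 12.96 and 13.13 in ESC. Setdb1, the histone methyltransferase it brings, had 7.60 and 7.69 in A-iPSC and 9.39 and 9.34 in ESC, a fall of 1.72 ± 0.29. Cbx1, a heterochromatin protein gene, fell by 1.94 ± 0.27. These 3 passed in every fit with an array left out, and the list's count was 3 without A-iPSC 19, 5 without ESC D and 4 without ESC H. Zfp809, the zinc finger protein that binds the primer site of murine leukaemia viruses, did not pass (0.68 ± 0.34, adjusted p = 0.15).

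Oncofetal RNA-binding genes were far lower in A-iPSC. Igf2bp3 had 5.34 and 5.72 in A-iPSC and 11.33 and 10.55 in ESC (-5.41 ± 0.36, adjusted p = 1.59e-06), and Igf2bp1 had 6.70 and 6.71 in A-iPSC and 11.37 and 11.77 in ESC (-4.87 ± 0.52). Of 12 counted germline genes whose promoters are kept methylated in somatic cells, 8 fell and 1 rose, with 6 to 8 falling with an array left out. Of the 12, 6 were detected in ESC alone, and of the 2 detected on all 4 arrays 1 fell. Tex19.1 was, in A-iPSC, at least 64.5-fold lower, with 4.43 and 4.40 against 10.70 and 11.52 in ESC, while Brdt, a testis bromodomain gene, was at least 6.09-fold higher. Among 19 imprinted genes, 10 fell and 2 rose, and 4 to 6 fell with an array left out (4 without A-iPSC 16 or ESC H, 6 without A-iPSC 19 and 5 without ESC D). Phlda2, a maternally expressed growth restrictor of the placenta, was, in A-iPSC, at least 57.5-fold lower, and Grb10, an adaptor of insulin signalling, rose by 1.98 ± 0.32.

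Early lineage lists differed among themselves. In the mesoderm and primitive streak list, 12 of 17 fell and 1 rose, with a median of -2.60, or -2.12 at the bounds, and 9 to 11 fell with an array left out. Mixl1, a streak homeobox gene, had 4.35 and 4.30 in A-iPSC and 8.51 and 7.62 in ESC, at least 7.80-fold lower. Of these 17 genes, 12 were detected in ESC and on no A-iPSC array and so were counted through ESC. Of the 4 detected on all 4 arrays, 0 fell and 1 rose. Of 6 neuroectoderm genes, 3 fell and 3 did not pass, with 2 falls whichever array was left out.

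In the trophectoderm list, 8 of 15 fell and 3 rose, against 19.1% lower and 18.5% higher over all counted probes. The simple keratin gene Krt8 read 7.10 and 7.92 in A-iPSC and 12.75 and 12.65 in ESC, a fall of 5.19 ± 1.14 (adjusted p = 0.00474). Tead4, a factor that starts the trophectoderm programme, ran the other way with 9.20 and 9.57 in A-iPSC and 6.64 and 5.83 in ESC, a rise of 3.15 ± 0.41. The falls numbered 5 without A-iPSC 16 or A-iPSC 19, and the rises 1 without ESC H. Of 14 primitive endoderm genes, 3 fell, 2 rose and 9 did not pass, near the shares of all counted probes (19.1% lower, 18.5% higher). The basement membrane collagen genes Col4a1 and Col4a2 fell (-2.77 ± 0.42 and -2.96 ± 0.42), and Srgn, a proteoglycan core protein of secretory granules, was, in A-iPSC, at least 170-fold higher, at 12.05 and 12.63 against 4.74 and 4.74 in ESC.

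HOX genes, which set position along the body axis and are silent in the early epiblast, ran in the opposite direction. Of 18 counted members, 11 rose in A-iPSC and 0 fell, with a median of 1.91, or 1.71 at the bounds. Over all counted probes 18.5% were higher and 19.1% lower. Of the 18, 4 were detected in A-iPSC and on no ESC array and so were counted through A-iPSC. Of the 9 detected on all 4 arrays, 6 rose and 0 fell. Hoxd8 read 11.29 and 11.19 in A-iPSC and 5.52 and 4.997 in ESC, a rise of 5.98 ± 1.31 (adjusted p = 0.00477). Hoxb4 had 9.37 and 9.16 in A-iPSC and 4.95 and 5.30 in ESC (4.14 ± 0.55), and Hoxd4 was at least 15.5-fold higher, with 8.86 and 8.91 in A-iPSC. Hoxa5 and Hoxa7 rose by 2.51 ± 0.54 and 3.16 ± 0.75. These 5 genes passed in every fit with an array left out. The list's count was 7, 6, 7 and 5 without A-iPSC 16, A-iPSC 19, ESC D and ESC H. On the 3 aged fibroblast arrays Hoxd8 read 9.72, 4.77 and 4.54 and Hoxb4 read 8.48, 7.12 and 6.98, all below both A-iPSC arrays.

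**Figure D4:**
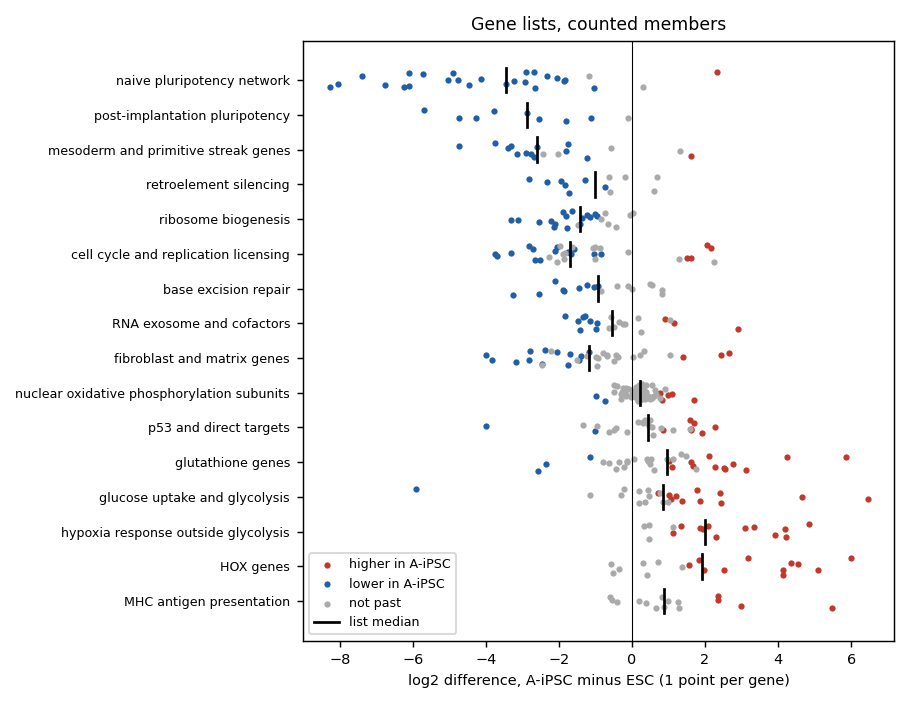
Each point is 1 counted gene of a list, placed by its log2 difference, A-iPSC minus ESC, with genes that rose in red, genes that fell in blue, genes that did not pass in grey and the list median as a black bar. The naive, post-implantation and mesoderm lists have medians of -3.46, -2.88 and -2.60, and the HOX and hypoxia lists have medians of 1.91 and 2.01.

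Energy metabolism differed along the glycolytic path. Of 23 counted genes of glucose uptake and glycolysis, 11 rose and 1 fell, with a median of 0.86 against -0.0375 over all counted probes. Eno2, the neuronal enolase, read 12.48 and 12.61 in A-iPSC and 6.33 and 5.87 in ESC, a rise of 6.45 ± 0.61 (adjusted p = 2.5e-05). Aldoc, aldolase C, had 12.80 and 12.60 in A-iPSC and 8.19 and 7.91 in ESC (4.65 ± 0.60). The phosphofructokinase genes Pfkp and Pfkm rose by 2.45 ± 0.37 and 1.77 ± 0.34, and the isomerase gene Tpi1 by 1.02 ± 0.23. These 5 passed in every fit with an array left out. Other genes of the same path did not pass at the probe that stands for them: Gapdh differed by 0.18 ± 0.22, the lactate dehydrogenase gene Ldha by 0.37 ± 0.20 and the transporter gene Slc2a1 by -0.21 ± 0.39. Another Gapdh probe did pass, with 13.52 and 13.62 in A-iPSC and 12.95 and 12.74 in ESC (0.72 ± 0.20, adjusted p = 0.0163). Of the 3 Tpi1 probes, 2 did not pass. Without A-iPSC 16, A-iPSC 19, ESC D and ESC H, 7, 6, 6 and 5 members rose.

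Slc2a3, the neuronal type glucose transporter GLUT3, was the member that fell. It read 8.16 and 5.90 in A-iPSC 16 and 19, against 13.05 and 12.84 in ESC (-5.91 ± 0.57, adjusted p = 2.83e-05). The clones lay further apart than the ESC lines did, and both were below ESC.

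Genes of the hypoxia response outside glycolysis were also higher. In this list, whose members are targets of hypoxia-inducible factor (HIF), a regulator that oxygen-dependent prolyl hydroxylases mark for degradation, 12 of 16 rose and 0 fell, with a median of 2.01. Between 10 and 11 rose with an array left out. Ndrg1, a stress-induced gene, had 12.37 and 12.91 in A-iPSC and 7.78 and 7.80 in ESC, a rise of 4.85 ± 0.27 (adjusted p = 3.7e-07). Egln3, a HIF prolyl hydroxylase that HIF itself induces, read 12.34 and 12.42 in A-iPSC and 8.40 and 8.51 in ESC (3.92 ± 0.41). Vegfa, the vascular growth factor, had 11.24 and 11.86 in A-iPSC and 8.44 and 8.48 in ESC (3.09 ± 0.43). The carbonic anhydrase gene Car12 rose by 4.22 ± 0.56 and the MYC antagonist gene Mxi1 by 3.35 ± 0.34. Hif1a, the regulated subunit, had 8.03 and 8.82 in A-iPSC and 7.59 and 8.35 in ESC and did not pass (0.45 ± 0.44, adjusted p = 0.471). The labels give no oxygen level for the cultures, and its part was not tested.

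Promoters of Egln3 and Aldoc are shown because both genes rose together with these lists and hold the core of the HIF response element, ACGTG, which is in capitals on either strand (CACGT where it lies on the other strand). The Egln3 window is chr12:54203825-54204124 on the minus strand, with the core 229 bases before the start, and the Aldoc window is chr11:78322823-78323122 on the plus strand, with the core 27 bases after it.

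Egln3: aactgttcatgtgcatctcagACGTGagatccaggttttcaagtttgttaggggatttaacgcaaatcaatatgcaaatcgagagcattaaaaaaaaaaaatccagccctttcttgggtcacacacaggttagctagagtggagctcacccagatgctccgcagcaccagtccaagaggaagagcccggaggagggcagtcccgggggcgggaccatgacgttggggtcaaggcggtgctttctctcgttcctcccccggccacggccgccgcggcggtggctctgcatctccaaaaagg
Aldoc: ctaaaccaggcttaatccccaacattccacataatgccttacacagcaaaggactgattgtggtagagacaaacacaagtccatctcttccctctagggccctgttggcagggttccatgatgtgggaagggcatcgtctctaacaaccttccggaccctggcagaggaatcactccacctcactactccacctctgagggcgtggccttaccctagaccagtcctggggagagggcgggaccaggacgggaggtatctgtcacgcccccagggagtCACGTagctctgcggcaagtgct

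The core was in 9 of 16 windows of the hypoxia genes that rose (56.2%) and in 8 of 17 windows of the glycolytic genes that rose (47.1%), against 6447 of all 32851 windows (19.6%). The E-box CACGTG contains this core and was in 1 window of each of these sets. The lists were assembled from genes known to respond to hypoxia, so the share is no independent evidence, and presence of the letters says nothing of binding.

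Oxidative phosphorylation subunits encoded in the nucleus mostly did not pass: 5 of 55 rose, 2 fell and 48 were within the threshold, with a median of 0.22. With an array left out 2 rose (1 without ESC H), and 0 fell without A-iPSC 19, ESC D or ESC H. Atp5e, a subunit of ATP synthase, rose by 1.71 ± 0.24 with 8.65 and 8.80 in A-iPSC and 6.88 and 7.15 in ESC. Of 11 enzymes of threonine, serine and one-carbon metabolism, 3 fell and 0 rose. Gldc, the glycine decarboxylase, read 6.93 and 6.29 in A-iPSC and 12.13 and 12.81 in ESC, a fall of 5.86 ± 0.81 (adjusted p = 0.0003). Shmt1, serine hydroxymethyltransferase, fell by 2.30 ± 0.38.

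Amino acid transporter genes went both ways, with 5 of 13 higher and 3 lower, against 18.5% higher and 19.1% lower over all counted probes. Slc38a5, a sodium-coupled transporter of glutamine and serine, had the highest difference of any gene detected on all 4 arrays: 13.23 and 13.10 in A-iPSC and 5.58 and 5.70 in ESC, a rise of 7.52 ± 0.24 (adjusted p = 6.46e-09). Slc7a11, the cystine carrier that feeds glutathione synthesis, was, in A-iPSC, at least 9.45-fold higher, and Slc1a4 rose by 2.42 ± 0.44. The list's rises numbered 3 without ESC H, and its falls 2 without A-iPSC 16, A-iPSC 19 or ESC D and 1 without ESC H.

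**Figure D5:**
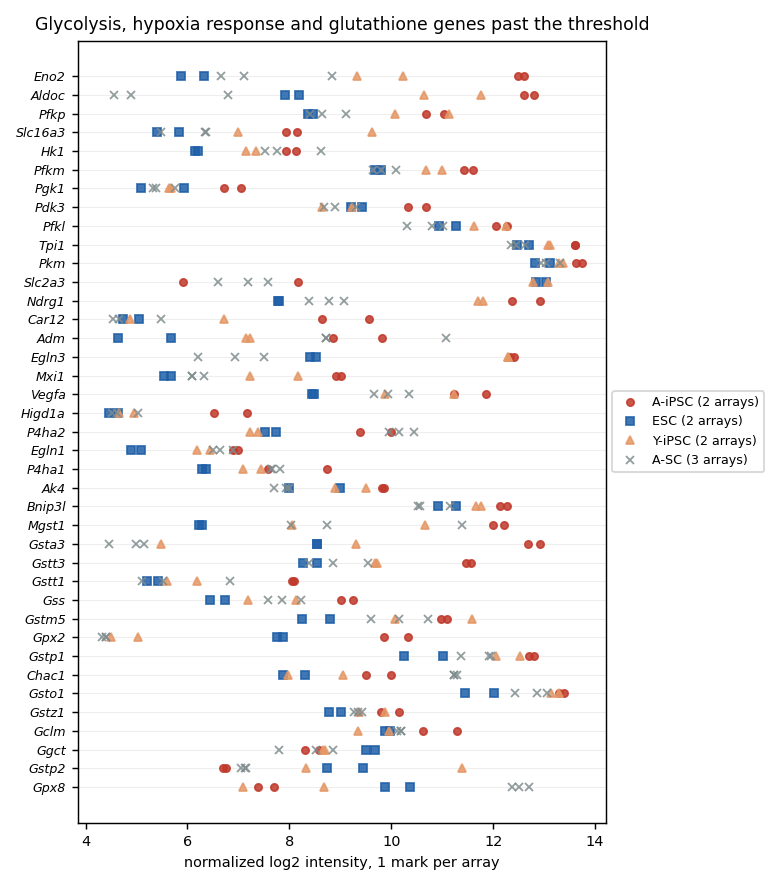
Normalized log2 intensity on each array of the glycolysis, hypoxia response and glutathione genes that passed, from top to bottom, with A-iPSC as red circles, ESC as blue squares, Y-iPSC as orange triangles and A-SC as grey crosses. Eno2, Aldoc, Ndrg1, Egln3 and Mgst1 are several units higher in A-iPSC than in ESC, and Slc2a3 is the glycolysis gene that is lower.

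Among glutathione genes more rose than fell. Of 33 counted, 12 rose, 3 fell and 18 did not pass, with a median of 0.96, and 10 to 12 rose with an array left out, while 1 fell in each of those fits. Gss, glutathione synthetase, had 9.01 and 9.24 in A-iPSC and 6.74 and 6.43 in ESC, a rise of 2.54 ± 0.35 (adjusted p = 0.0003). Gpx2, a glutathione peroxidase of epithelia, read 10.32 and 9.86 in A-iPSC and 7.76 and 7.87 in ESC (2.27 ± 0.26, adjusted p = 8.51e-05). Mgst1, a microsomal transferase, averaged 12.11 in A-iPSC and 6.25 in ESC (5.86 ± 1.01). The soluble transferase genes Gsta3, Gstt3, Gstt1, Gstm5 and Gstp1 rose by 4.25, 3.11, 2.75, 2.505 and 2.12. Members of the Gst families are similar in sequence, and cross-hybridisation between them was not tested. Gpx8, a peroxidase of the endoplasmic reticulum, fell by 2.58 ± 0.47. Of the 2 subunits of glutamate-cysteine ligase, which acts before Gss, the catalytic subunit gene Gclc was within the threshold (-0.21 ± 0.24) and the modifier subunit gene Gclm rose by 1.02 ± 0.27, a call lost without A-iPSC 16, ESC D or ESC H.

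Other antioxidant genes mostly did not pass. Of 23, 2 rose and 0 fell: Sesn1, a stress-induced p53 target, by 1.92 ± 0.34, and Keap1, the adaptor that degrades NRF2, by 1.07 ± 0.21. Catalase (Cat) differed by 0.14 ± 0.33 and Sod1 by 0.05 ± 0.24. Nqo1 and Hmox1, both NRF2 targets, differed by 1.16 ± 0.86 and 2.21 ± 0.85, both within the threshold (adjusted p = 0.332 and 0.0635). Outside these lists the detoxifying dehydrogenase genes Aldh3a1 and Adh7 rose by 6.01 ± 0.77 and 5.56 ± 1.13, with 11.33 and 11.69 in A-iPSC against 5.14 and 5.85 in ESC for Aldh3a1.

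Among cell cycle genes, several that license replication fell in A-iPSC. Of 32 counted, 14 fell, 4 rose and 14 did not pass, with a median of -1.70. Mcm3, a subunit of the replicative helicase, read 7.09 and 6.61 in A-iPSC and 10.58 and 9.72 in ESC, a fall of 3.30 ± 0.59 (adjusted p = 0.0014). Mcm2 and Mcm4 of the same complex fell by 2.81 ± 0.56 and 2.51 ± 0.48, and its loading factor gene Cdt1 by 2.67 ± 0.50. Ccne1, the cyclin that drives entry into S phase, had 7.19 and 6.20 in A-iPSC and 10.39 and 10.50 in ESC (-3.75 ± 0.54). All the members that rose encode inhibitors of cyclin-dependent kinases: Cdkn1b was at least 3.55-fold higher, and Cdkn2c, Cdkn1a and Cdkn2b rose by 2.05, 1.61 and 1.51, the last a call lost without A-iPSC 19. Not every gene of such an inhibitor rose. Cdkn1c differed by -3.70 (adjusted p = 0.0104), a call lost without A-iPSC 16, ESC D or ESC H, and Cdkn2a did not pass (2.24, adjusted p = 0.056). The helicase subunit gene Mcm7 (-1.98 ± 0.81) and the mitotic genes Cdc20 (-2.26 ± 0.94), Plk1 (-2.05 ± 0.95), Top2a (-1.85 ± 0.97) and Cdk1 (-1.01 ± 0.80) did not pass. The falls numbered 8 without A-iPSC 19 and 7 without ESC H, but 24 in a fit on the 4 arrays of A-iPSC and ESC alone, 23 on the 8 iPSC and ESC arrays or on 10 arrays, and 22 with array weights. Cdc20, Plk1, Top2a and Cdk1 passed in the fits on 4, 8 and 10 arrays.

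The promoter of Mcm3 is shown because it holds 2 of the E2F sites searched (TTTCCCGC and TTTGGCGC, both strands), in capitals 19 and 38 bases after the start. The window is chr1:20820263-20820562 on the minus strand.

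Mcm3: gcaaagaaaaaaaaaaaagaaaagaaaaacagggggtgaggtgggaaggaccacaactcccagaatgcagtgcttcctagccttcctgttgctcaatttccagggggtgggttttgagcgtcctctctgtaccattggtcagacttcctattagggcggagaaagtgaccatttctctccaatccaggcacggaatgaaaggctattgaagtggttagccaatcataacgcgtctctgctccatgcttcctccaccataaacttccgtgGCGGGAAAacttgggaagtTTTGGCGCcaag

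These letters were in 6 of 13 windows of the cell cycle genes that fell (46.2%) and in 514 of all 32851 windows (1.56%). Of the 14 genes, 11 had a window, and the list was assembled from genes known to be E2F targets in part.

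Most counted genes of ribosome building fell. Of 23 counted, 16 fell, 0 rose and 7 did not pass, among them Npm1 (-0.05 ± 0.22) and Nop10 (0.04 ± 0.31), with a median of -1.41, and the falls numbered 9 without A-iPSC 19. Pes1, needed to process the large subunit RNA, had 7.37 and 6.14 in A-iPSC and 10.10 and 10.05 in ESC, a fall of 3.32 ± 0.43 (adjusted p = 0.00019). Heatr1, a factor of the small subunit processome, fell by 3.11 ± 0.38, nucleolin (Ncl) by 2.53 ± 0.35 and Bop1, a partner of Pes1, by 2.23 ± 0.39. Nop56, a core protein of box C/D particles, read 9.48 and 9.20 in A-iPSC and 11.36 and 10.87 in ESC. The E-box was in 2 of 19 windows of the genes that fell (10.5%), near the 7.15% of all windows.

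The RNA exosome, which degrades and trims RNA from its 3' end, had some subunits that fell. Of 20 counted genes of the exosome and its cofactors, 8 fell and 3 rose, with 4 falling without A-iPSC 16 and 2 without A-iPSC 19, ESC D or ESC H. Exosc5, a subunit of the ring, had 9.13 and 9.03 in A-iPSC and 10.70 and 10.31 in ESC (-1.43 ± 0.24, adjusted p = 0.001). Exosc1 and Exosc2, cap subunits, differed by -0.98 ± 0.29 and -1.85 ± 0.55 (adjusted p = 0.0223 and 0.022), calls lost without A-iPSC 19, ESC D or ESC H. The ring subunit genes Exosc4, Exosc6 and Exosc8 did not pass (-0.35 ± 0.30, -0.62 ± 0.39 and -0.26 ± 0.51). Ttc37, a scaffold of the Ski complex that feeds cytoplasmic RNA to the exosome, ran the other way with 10.05 and 9.94 in A-iPSC and 6.98 and 7.20 in ESC, a rise of 2.91 ± 0.22 (adjusted p = 4.3e-06).

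Of 17 base excision repair genes, 9 fell and 0 rose, but 2 fell without A-iPSC 19, ESC D or ESC H and 5 without A-iPSC 16. Apex1, the endonuclease that cuts abasic sites, held in every such fit, at 9.17 and 8.76 in A-iPSC and 12.46 and 11.998 in ESC (-3.26 ± 0.28, adjusted p = 1.3e-05). Among 30 genes of break, mismatch and nucleotide excision repair, 10 fell and 4 rose, with 3 falling without A-iPSC 19 or ESC H and 6 without ESC D, and 1 to 2 rising with an array left out (1 without A-iPSC 19 or ESC H). Over all counted probes 19.1% were lower and 18.5% higher. The checkpoint kinase gene Chek2 fell by 1.32 ± 0.24 and Xpc, which recognises helix distortions, rose by 1.70 ± 0.33. Of 28 p53 targets, 7 rose, 2 fell and 19 did not pass, with the rises near the 18.5% of all counted probes. Among them Cdkn1a had 12.46 and 12.29 in A-iPSC and 10.88 and 10.66 in ESC, and Rrm2b, a ribonucleotide reductase subunit, rose by 2.28 ± 0.30, while Mdm2, the ligase that restrains p53, did not pass (0.37 ± 0.36).

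Cell surface and matrix genes split. Of 33 fibroblast and matrix genes, 3 rose and 13 fell, with 7 to 9 falling with an array left out (7 without A-iPSC 19, 8 without ESC H). Acta2, smooth muscle actin, read 11.12 and 10.97 in A-iPSC and 13.40 and 13.43 in ESC, a fall of 2.37 ± 0.24, and Tagln was at least 12.2-fold lower. Ccn1, a target of YAP, and Twist1, a mesenchymal factor, rose by 2.44 ± 0.27 and 2.67 ± 0.47. Of 19 epithelial junction genes, 5 rose and 7 fell, against 18.5% higher and 19.1% lower over all counted probes. Cdh1, E-cadherin, had 8.85 and 8.99 in A-iPSC and 10.52 and 10.65 in ESC (-1.66 ± 0.31), and the epithelial factor Grhl2 was at least 16.7-fold lower. Cldn11, a claudin best known from myelin, was, in A-iPSC, at least 171-fold higher, at 11.89 and 12.81 against 4.49 and 4.55 in ESC, and Pkp1, plakophilin of desmosomes, rose by 4.64 ± 0.45. The lists' falls in the junction genes numbered 4 without ESC D or ESC H.

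Among keratinocyte genes, 3 of 11 rose and 5 fell, against 0 rising without A-iPSC 19 or ESC D, 1 without ESC H, and 3 falling whichever array was left out. The epidermal keratin gene Krt17 (at least 24.8-fold lower) and Krt42 (at least 37.7-fold lower) were undetected in A-iPSC. Itgb4, an integrin of hemidesmosomes, rose by 4.36 ± 1.19 with 11.99 and 12.52 in A-iPSC and 7.62 and 8.17 in ESC, Sprr2a1, of the cornified envelope, rose by 1.20 ± 0.33, and the hemidesmosomal collagen gene Col17a1 was at least 1.396-fold higher. Itgb4 and Sprr2a1 no longer passed without A-iPSC 19, ESC D or ESC H, Sprr2a1 also without A-iPSC 16, and Col17a1 without A-iPSC 19 or ESC D. The 14 tested keratinocyte markers summed to 5161 and 6964 in A-iPSC and 4837 and 3766 in ESC. Most of the A-iPSC sum came from Itgb4. Of 15 genes of MHC antigen presentation, 4 rose and 0 fell, against 18.5% higher over all counted probes. The rises numbered 3 whichever array was left out, 2 among probes detected on all 4 arrays, 8 with array weights and 10 in a fit on the 4 arrays alone. Cd74, the invariant chain of class II molecules, read 9.96 and 11.62 in A-iPSC 16 and 19 and 5.51 and 5.13 in ESC, a rise of 5.47 ± 0.50 (adjusted p = 1.8e-05), and H2-Ab1, a class II chain, rose by 2.99 ± 0.33. Beside them, the macrophage marker Cd14 was at least 7.49-fold higher, with 7.65 and 8.02 in A-iPSC, while Lyz1 (-0.25 ± 0.58) and Lyz2 (-0.55 ± 0.65) did not pass and Adgre1, Tyrobp and C1qc did not reach the counting rule. Interferon response genes were even, with 3 of 21 higher and 3 lower, and 1 lower without A-iPSC 19. Of 4 counted endothelial markers, 2 rose, 1 fell and 1 did not pass. The receptor gene Tek had 10.16 and 10.40 in A-iPSC and 5.54 and 6.97 in ESC (4.02 ± 0.89, adjusted p = 0.00497, not passed without ESC D). Eng rose by 2.95 (adjusted p = 0.0221 in limma), a call lost whichever array was left out. Pecam1 was undetected in A-iPSC and did not pass (adjusted p = 0.217).

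Among the 10 highest and 10 lowest genes detected on all 4 arrays, several belonged to no list. Guca1a, a guanylate cyclase activator of photoreceptors, read 12.84 and 12.73 in A-iPSC and 5.95 and 5.93 in ESC, a rise of 6.84 ± 0.46 (adjusted p = 1.7e-06). Mal, a raft proteolipid, rose by 5.82 ± 0.70, Mansc1 by 6.16 ± 0.82 and the sialyltransferase gene St3gal6 by 5.88 ± 1.35. The other Mansc1 probe rose by only 1.07. The kallikrein genes Klk1b5 and Klk1b27 were at least 131-fold and 117-fold higher, and these paralogs are similar enough that their probes may share signal, which was not tested. Acsbg1, an acyl-CoA synthetase of brain, was at least 134-fold higher, at 11.96 and 12.04 in A-iPSC and 4.68 and 4.71 in ESC. At the other end Mdk, the growth factor midkine, had 6.11 and 6.69 in A-iPSC and 12.39 and 12.10 in ESC (-5.85 ± 1.05). All 3 Mdk probes fell, with differences from -5.85 to -2.27. Psmb6, a catalytic proteasome subunit, fell by 5.63 ± 1.36 with 7.13 and 6.88 in A-iPSC and 12.68 and 12.59 in ESC, a call lost without A-iPSC 19. Apoe, apolipoprotein E, fell by 5.15 ± 1.37, a call lost without A-iPSC 16, A-iPSC 19 or ESC D. On the 3 aged fibroblast arrays Psmb6 read 6.17, 11.71 and 11.74, the first of them below both clones. Erdr1 was, in A-iPSC, at least 69.6-fold lower. These genes were picked only among those where the clones and the ESC lines did not overlap, as held for 10737 of the 13668 counted probes.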

How the data were processed

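RNA of 14 samples was read on Illumina MouseRef-8 v2.0 bead arrays. The deposited table used here holds, per the file headers, a probe intensity without normalization and a detection p-value for each array. The authors' normalized intensity table, made with lumi per the labels, ranked probes identically within arrays and served to check the samples.

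Background was corrected by normexp, which took its negative controls from the relation of detection p-value to intensity, 16 was added, and the arrays were quantile normalized and put on a log2 scale from the deposited intensities. A probe entered the test if some group detected it (p under 0.05) on all its arrays, which left 14742. limma (3.58.1, R 4.3.3) fitted 1 mean per group over all 14 arrays, and p-values were adjusted by Benjamini-Hochberg over all tested probes. A gene with several probes is given by the tested probe with the highest mean over all arrays. Of 25697 probes, 23978 had 1 gene symbol, 0 several and 1719 none.

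Named genes are the 10 highest and 10 lowest detected on all 4 arrays and 5 bounds each way. Both were taken among genes that passed and whose groups did not overlap. Also named are up to 6 members of a list per direction by size, and members that did not pass where their list is described. A fixed set around Zscan10, glutathione and the exosome was added. A few others were named after their values were seen. The compared groups, gene lists and named genes were chosen with earlier results of these data known. Lists are described by counts and medians, with no list test. Promoter windows are RefSeq's (GRCm38.p6). The fit was tested on simulated data. Alternatives changed the background, normalization, offset, filter, samples fitted and array weights, and left out each array.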

Additional observations from a re-analysis of the deposited data

Results flagged for a closer look

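Of 42 named genes compared between A-iPSC and Y-iPSC, the same reprogramming factors in fibroblasts of aged and of embryonic donors, 15 differed at an adjusted p under 0.05 in limma, against 1495 of all 14742 tested probes (10.1%). Most of the 42 were chosen for extreme values of A-iPSC against ESC on the same A-iPSC arrays, so the share of them that differ is no result about these genes. Esrrb, Dppa4, Dnmt3l, Zfp42 and Slc38a5 were among those that did not pass between A-iPSC and Y-iPSC. Differences are A-iPSC minus Y-iPSC, in log2 units with their SE.

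The genes with more signal in A-iPSC were Gpx2 (5.33 ± 0.26, adjusted p = 8.38e-07), Guca1a (5.26 ± 0.46, adjusted p = 6.07e-05), Acsbg1 (3.36 ± 0.39), Mansc1 (3.27 ± 0.82), Eno2 (2.76 ± 0.61) and Gss (1.47 ± 0.35, adjusted p = 0.0223). Gpx2 was detected on 1 of the 2 Y-iPSC arrays. Gpx2 and Gss act in glutathione metabolism. The pluripotency genes with less signal in A-iPSC were Dnmt3b (-2.58 ± 0.68) and Zscan10 (-2.17 ± 0.38, adjusted p = 0.0047), the last detected on 1 A-iPSC array. Gdf3, Nanog and Erdr1 were detected on no A-iPSC array and on both Y-iPSC arrays, so only bounds hold. In A-iPSC Gdf3 was at least 40.7-fold lower (fitted -5.67, adjusted p = 7.17e-06), Nanog at least 2.59-fold lower (fitted -1.75, adjusted p = 0.0365) and Erdr1 at least 56.5-fold lower (fitted -6.44, adjusted p = 0.00187), and these fitted differences are not exact. Other genes lower in A-iPSC were Slc2a3 (-5.9 ± 0.57), Psmb6 (-5.28 ± 1.36), Igf2bp3 (-3.46 ± 0.36) and Cldn11 (-1.33 ± 0.36). Cldn11 was above ESC in A-iPSC and higher still in Y-iPSC. Groups of 2 and 3 arrays were too small for a search for outlying arrays.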

How the results depend on the processing

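Of 5138 passing probes (2530 higher, 2608 lower, 3760 genes), 2749 to 3751 passed when 1 of the 4 arrays was left out, with 1467 to 1857 higher, 1282 to 1894 lower and 2101 to 2779 genes. The lowest counts came without A-iPSC 19. A group reduced to 1 array is assumed to vary like the others, and the smaller sample lowers the count by construction. Array weights gave 7283 probes and a fit on the 4 arrays alone 7116; other settings gave 3821 (only probes detected on all 4 arrays) to 6122. Of 310 listed or named genes that passed, 175 did so in every setting. Averaged over its probes Sox2 reversed (-0.7827, adjusted p = 0.0255 in limma), since its 2 probes run in opposite directions, and Klf4 no longer passed. Median scaling moved the median difference to -0.108. No paired analysis was possible because A-iPSC (16, 19) and ESC (D, H) share no replicate numbers.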

Other observations

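None of the sex-linked transcripts Eif2s3y, Kdm5d, Uty and Xist passed between A-iPSC and ESC in limma. Eif2s3y, on the Y chromosome, had an adjusted p of 0.299 and read 5.93 and 4.66 in A-iPSC 16 and 19, against 7.48 and 9.55 in ESC D and H. Xist was detected on 0 A-iPSC arrays and on 2 ESC arrays, with 4.65 and 4.79 in A-iPSC and 5.03 and 4.94 in ESC (adjusted p = 0.904). Uty read 5.95 and 5.73 in A-iPSC and 5.81 and 6.44 in ESC, and Kdm5d was detected in neither.

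The median difference of A-iPSC minus ESC varied by chromosome, at -0.447 on chromosome 14, -0.308 on 4, -0.267 on 8 and 0.248 on 12. The ESC lines themselves differed (D minus H) by 0.271 on chromosome 14 and 0.207 on chromosome 1, and by -0.0575 to 0.106 on the other 18 of the autosomes and X. Between A-iPSC 16 and 19 the medians ran from -0.0356 to 0.106 over the autosomes and X. Chromosome Y, with 3 counted probes, had medians of 0.22 for A-iPSC 16 minus 19 and -0.633 for ESC D minus H.

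A few genes, chosen after their values were seen, separated the clones. Trh, the thyrotropin-releasing hormone gene, read 9.80 and 7.43 in A-iPSC 16 and 19 and 12.55 and 12.27 in ESC. Cck, a peptide hormone gene, read 7.28 and 10.03 in A-iPSC 16 and 19 and 4.61 and 4.49 in ESC, and Atp1b1 read 7.55 and 10.24 in A-iPSC and 10.43 and 10.33 in ESC.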
